A study of Homo sapiens with 12 samples.

Results

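The comparison is of CT2 human embryonic stem cells carrying a short hairpin RNA (shRNA) against JMJD1C with untreated CT2 cells. Its members are 4 of the 12 arrays of the series, 2 of knockdown cells and 2 of untreated cells, chosen by their labelled line and treatment. All 12624 genes detected on at least 2 of these 4 arrays were tested. CT2 and H9, the other line of the series, are established lines of undifferentiated human embryonic stem cells, and each was studied untreated, with a control hairpin of mismatched sequence (mismatch shRNA) and with the shRNA against JMJD1C. Total RNA was amplified, labelled with biotin and hybridised to Illumina bead arrays, on which each probe is read as the mean brightness of its beads. The untreated cells carry no hairpin, so a response to any hairpin cannot be told apart from a response to the loss of JMJD1C in this comparison. For that reason the CT2 mismatch arrays are given beside many of the values below. Where they are not given, the mismatch hairpin may share a difference from untreated cells. The labels do not say whether the replicates were separate cultures, and p-values therefore measure only the spread between these arrays, which may be technical. They also do not give the hairpin sequence, the vector, the time after treatment or whether a group is 1 clone.

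JMJD1C belongs to the KDM3 family of jumonji-domain proteins, whose members KDM3A and KDM3B remove methyl groups from lysine 9 of histone H3, a mark of silent chromatin. The miR-302 cluster lies in an intron of LARP7 and is highly transcribed in human embryonic stem cells. Its microRNAs repress cell cycle inhibitors and inhibitors of NODAL signalling such as LEFTY1 and LEFTY2. NODAL and activin ligands signal through SMAD2 and SMAD3 to keep these cells pluripotent, and LEFTY proteins bind the ligand or its co-receptor as feedback inhibitors.

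The mature sequences of the miR-302 microRNAs whose probes were above background in CT2 are shown with the shared seed, bases 2 to 8, in capitals. They are from RefSeq on GRCh38.p14, at chr4:112648366-112648388 for miR-302c-3p and chr4:112648006-112648028 for miR-302d-3p, both on the minus strand.
miR-302c-3p: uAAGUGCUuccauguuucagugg
miR-302d-3p: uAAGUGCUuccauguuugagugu
Both carry the seed AAGUGCU. The array probes read the genes MIR302C and MIR302D in total RNA, and no probe on the array was taken as a measure of the mature microRNA. The probes of the other cluster members, MIR302A, MIR302B and MIR367, lay at background throughout the 4 arrays (detection p from 0.121 to 0.712), so they give no comparison.

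The 4 arrays had median intensities of 162.6 to 190.9 and detected 44.8% to 46.9% of 47314 probes. Across the tested genes each of the 4 correlated best with its own replicate (r = 0.990 for untreated and 0.986 for knockdown), where genes are not independent replicates. The CT2 mismatch replicates stood apart. They correlated with each other at 0.965, and each correlated better with an H9 array (0.973 and 0.970) than with its own replicate. Replicates differed on the log2 scale with an SD across genes of 0.618 in CT2 mismatch, against 0.325 in untreated CT2 and 0.394 in CT2 knockdown. In untreated H9, the baseline of the H9 values below, this SD was 0.503. There replicate 2 correlated better with H9 mismatch replicate 1 (0.984) than with its own replicate (0.977). All these arrays enter the shared estimate of the spread, and counts of genes are given with and without the CT2 mismatch arrays. Of 31 listed markers of pluripotent cells 29 were detected in CT2, among them POU5F1, SOX2, NANOG and LIN28A.

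JMJD1C, the target of the hairpin, had log2 intensities of 11.48 and 11.94 untreated, 10.77 and 10.71 with the knockdown, and 12.06 and 12.38 with the mismatch hairpin. Both knockdown arrays lay below both untreated arrays and below both mismatch arrays. The knockdown level was 51.2% of the untreated level, a log2 difference of -0.97 ± 0.27 (SE, n = 2 and 2 arrays). In the limma fit that shares the spread of all 12 arrays this difference did not pass after Benjamini-Hochberg adjustment (adjusted p = 0.175). It did pass in the fit on the 4 arrays alone (adjusted p = 0.00468), and over all alternatives the adjusted p ran from 0.00468 to 0.848. The CT2 knockdown minus the mismatch hairpin gave -1.48 and passed in the shared fit (adjusted p = 0.00816), where the mismatch hairpin minus untreated gave 0.51 (0.237). In H9 the knockdown minus untreated gave -1.36 ± 0.27 (adjusted p = 0.0127), and the CT2 response minus the H9 response was 0.39 ± 0.39 (adjusted p = 0.775). Another detected JMJD1C probe read 10.89 and 11.26 untreated and 9.93 and 9.92 with the knockdown, a log2 difference of -1.15. A further probe stayed at background. The paralogues did not pass, with a log2 difference of -0.19 ± 0.31 for KDM3A (adjusted p = 0.942) and 0.28 ± 0.21 for KDM3B (0.764).

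The miR-302 genes were named after their values were seen. MIR302C read 9.49 and 9.53 untreated, 8.32 and 8.55 with the knockdown, and 8.75 and 10.04 with the mismatch hairpin. The knockdown arrays lay below the untreated arrays, while the mismatch arrays lay far from each other and their range spanned the untreated values. The log2 difference of -1.08 ± 0.37 did not pass in the shared fit (adjusted p = 0.290) and passed on the 4 arrays alone (0.00795), beside -0.93 ± 0.37 in H9 (0.195). MIR302D gave -0.67 ± 0.30 (adjusted p = 0.490, and 0.267 on the 4 arrays), with 7.40 and 7.66 untreated, 6.77 and 6.95 with the knockdown, and 7.67 and 7.85 with the mismatch hairpin. LARP7, the host gene, gave -0.18 ± 0.23 (adjusted p = 0.898), and the sign turned to 0.17 without CT2 knockdown replicate 1. Of 22 tested genes reported as targets of the family, LEFTY2 rose and CCND1, which encodes cyclin D1, fell in the shared fit. At an unadjusted p under 0.05, 5 were higher and 1 lower, beside 9.47% of all genes in either direction. On the 4 arrays alone LEFTY2, LEFTY1 and TXNIP passed higher and CCND1 lower, beside 1.01% and 1.96% of all genes. TXNIP gave 0.71 ± 0.32 (adjusted p = 0.502, and 0.0180 on the 4 arrays), and the mismatch hairpin minus untreated gave 0.67 (0.187 in the shared limma fit).

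**Figure D1:**
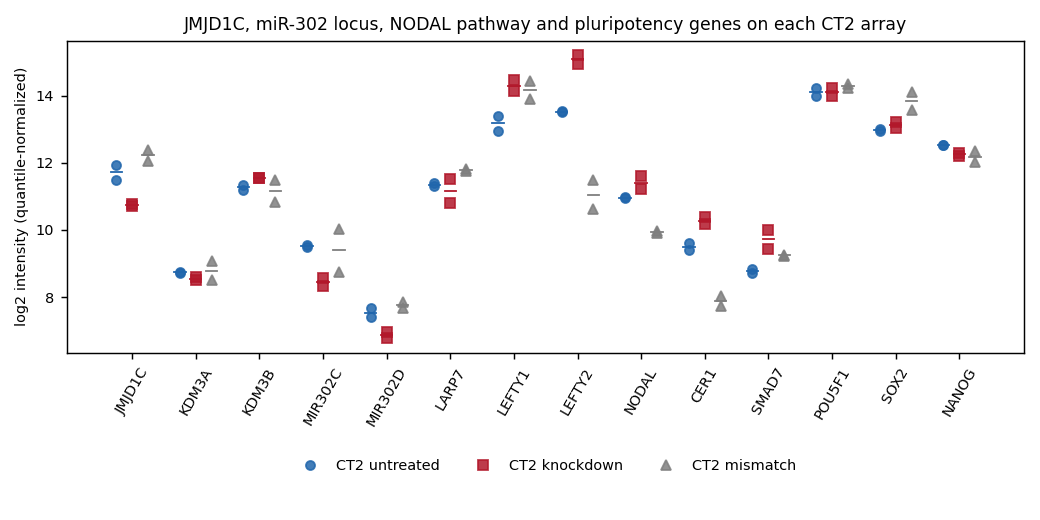
Normalized log2 intensity (y axis) of JMJD1C, miR-302, NODAL-pathway and pluripotency genes (x axis) on the 6 CT2 arrays, with 1 point per array and short lines at the mean of a group's 2 arrays. The knockdown arrays of JMJD1C and MIR302C lie below both untreated arrays, and those of LEFTY2 lie above them.

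Over all genes the shared limma fit called 40 of 12624, or 0.317%, at an adjusted p under 0.05. Of these 12 rose (0.0951%) and 28 fell (0.222%), and 11 of the rises and 26 of the falls were at least 2-fold. All 40 had both knockdown arrays beyond both untreated arrays, as did 23.7% of all genes upward and 21.7% downward. The number of calls depended on which arrays set the spread. On the 4 arrays alone limma called 374 genes (2.96%), 127 higher (1.01%) and 247 lower (1.96%), and these included all 40. Without both CT2 mismatch arrays there were 139 calls, again with all 40 among them, and on the 6 CT2 arrays there were 20, of which 19 were among the 40. Leaving out untreated replicate 1 or 2 gave 10 or 12 calls, and leaving out knockdown replicate 1 or 2 gave 9 or 15. ANKLE1, CRYGD, CXCL5, CYP2E1, KHDRBS3, SLITRK4, SYT11, TRIM61 and ZNF280D passed in each of these 4 cases. At the threshold, PIWIL2, RAC2 and C19orf33 lay just inside (each 0.0499), and HRK (0.0503), LEP (0.0511) and P3H2 (0.0526) just outside.

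**Figure D2:**
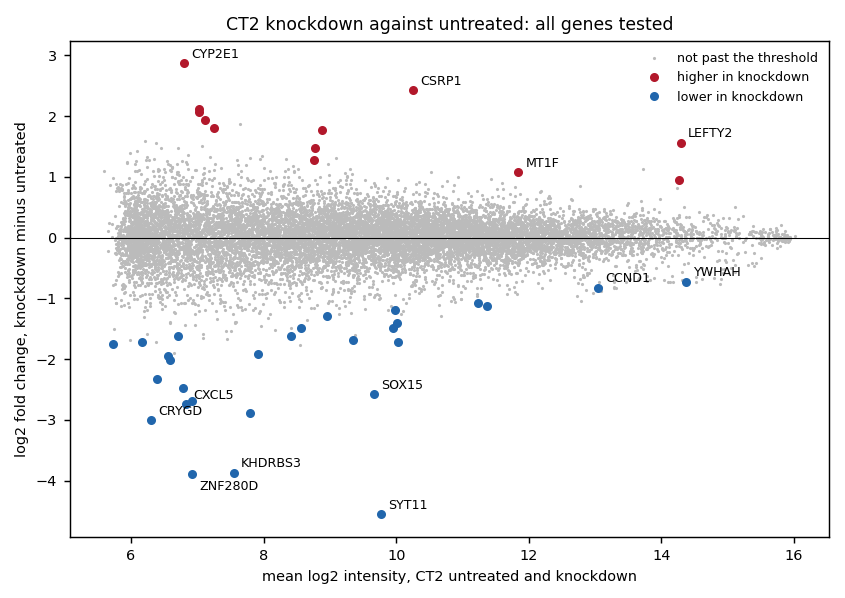
Log2 fold change of CT2 knockdown minus untreated (y axis) against the mean log2 intensity of the 4 arrays (x axis), with 1 point per gene. The 40 called genes are coloured by direction, and SYT11 lies lowest at -4.55.

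SYT11, a synaptotagmin involved in membrane trafficking, had the largest fitted fall. It read 12.08 and 12.01 untreated, 7.36 and 7.64 with the knockdown, and 11.46 and 10.76 with the mismatch hairpin. The untreated and mismatch arrays were high and the knockdown arrays low, with no overlap. SYT11 fell 23.4-fold in the knockdown (log2 fold change -4.55 ± 0.30, adjusted p = 6.17e-07), and the knockdown also lay below the mismatch hairpin by -3.61 (adjusted p = 5.16e-06). In H9 its untreated arrays read 7.32 and 7.10, near the CT2 knockdown arrays, and the H9 response of -0.78 ± 0.30 did not pass (0.182).

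SOX15, a SOX-family transcription factor, read 11.13 and 10.79 untreated, 8.36 and 8.39 with the knockdown, and 10.62 and 9.48 with the mismatch hairpin. It fell by 2.58 ± 0.35 on the log2 scale (adjusted p = 0.00250), and H9 gave -2.36 ± 0.35 (0.00164). CADM1, a cell adhesion molecule, read 8.71 and 9.02 untreated, 6.84 and 7.07 with the knockdown, and 8.60 and 8.54 with the mismatch hairpin. For both genes every mismatch array lay above every knockdown array. CADM1 fell by 1.91 ± 0.30 (adjusted p = 0.00869), beside -2.34 ± 0.30 in H9 (0.000545).
CXCL5, a chemokine that attracts neutrophils, went opposite ways in the lines. In CT2 it read 8.24 and 8.17 untreated, 5.26 and 5.66 with the knockdown, and 8.70 and 9.11 with the mismatch hairpin, and the probe was not above background on the knockdown arrays. It was at least 4.59-fold lower there (adjusted p = 0.000130, fitted log2 fold change -2.74 ± 0.28). In H9 it read 9.59 and 8.88 untreated and 10.94 and 11.08 with the knockdown, a rise of 1.77 ± 0.28 (0.00253). Another CXCL5 probe, above background on 1 of the 2 knockdown arrays, gave -1.95 in CT2 (adjusted p = 0.0103 among all probes).

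The genes were then divided by whether their CT2 mismatch mean lay nearer to the untreated or to the knockdown mean, a division made after the values were seen and given with no test. For 13 of the 28 falls, the mismatch mean lay nearer to untreated. Beside SYT11, SOX15, CADM1 and CXCL5 these were COL7A1, TRIM2, ELOVL4, CNRIP1, DISP1, YWHAH, CCND1, ORM2 and C19orf33. COL7A1, the chain of type VII collagen, fell by 1.71 ± 0.25 (adjusted p = 0.00438) from 10.94 and 10.84 to 9.27 and 9.08. TRIM2, a ubiquitin ligase, fell by 1.68 ± 0.34 (0.0499) from 10.10 and 10.27 to 8.16 and 8.84. The knockdown arrays of both were below all untreated and mismatch arrays. ELOVL4, an elongase of very long fatty acids, fell by 1.49 ± 0.22 (0.00594) from 10.48 and 10.91 to 9.07 and 9.34. CNRIP1, which binds the cannabinoid receptor, fell by 1.29 ± 0.24 (0.0396), although its other detected probes gave -0.92 and -0.15 and did not pass. DISP1, needed for the release of Hedgehog ligands, fell by 1.49 ± 0.27 (0.0255) and YWHAH, a 14-3-3 protein, fell by 0.73 ± 0.14 (0.0472). CCND1 fell by 0.82 ± 0.16 (0.0472), from 13.54 and 13.37 to 12.65 and 12.62, with 13.26 and 13.05 on the mismatch arrays. ORM2, an acute-phase plasma glycoprotein, dropped below background and was at least 2.86-fold lower (0.0472), and C19orf33 fell by 1.61 ± 0.32 (0.0499).

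For the other 15 falls, the mismatch mean lay nearer to the knockdown mean, though for some it lay well short of it. The mismatch hairpin minus untreated gave -0.76 for IFI6 (limma adjusted p = 0.0766), -0.73 for BMP7 (0.0472) and -2.11 for ANKLE1 (0.00200). The knockdown minus the mismatch hairpin gave -0.65, -0.46 and -0.78 for these genes, and none of them passed (0.167, 0.252 and 0.169). KHDRBS3, an RNA-binding protein that regulates splicing, read 9.58 and 9.39 untreated, 5.69 and 5.54 with the knockdown, and 5.66 and 6.14 with the mismatch hairpin. Its knockdown arrays were not above background, and it was at least 11.1-fold lower than in untreated cells (adjusted p = 5.69e-07). Another of its probes gave -1.87 (0.0157 among all probes). ZNF280D, a zinc finger protein, read 9.04 and 8.68 untreated, 4.96 and 5.0 with the knockdown, and 5.13 and 5.35 with the mismatch hairpin, at background with either hairpin. It was at least 7.24-fold lower (adjusted p = 6.17e-07), and both of its other detected probes also passed, at -3.61 and -1.71. In H9 both genes were expressed in every group and did not pass, with 11.64 to 11.89 for KHDRBS3 and 9.51 to 9.89 for ZNF280D.
CRYGD, a lens crystallin, read 7.88 and 7.74 untreated, 4.77 and 4.83 with the knockdown, and 4.81 and 4.75 with the mismatch hairpin. It was at least 3.49-fold lower (0.000124) and lay at background in all H9 groups compared. TRIM61, a tripartite motif protein, was at least 4.79-fold lower (0.000648), from 8.37 and 8.16 to 5.88 and 5.26, and the mismatch arrays read 6.01 and 5.84. In H9 it also fell, by 2.18 ± 0.32 (0.00152), and there too the mismatch arrays, at 5.76 and 5.73, lay near the knockdown arrays.
GALR2, a galanin receptor, was at least 4.05-fold lower (0.00250) and SLITRK4, a transmembrane protein of neurons, at least 2.93-fold lower (0.00103). The microRNA gene MIR2116 was at least 3.01-fold lower (0.0163) and CRISP2, a secretory protein of the testis, at least 2.86-fold lower (0.00878). COX7A1, a subunit of cytochrome c oxidase, was at least 2.02-fold lower (0.0472) and SEC14L4, of a lipid-binding family, at least 1.52-fold lower (0.0168). ANKLE1, an endonuclease, fell by 2.89 ± 0.32 (0.000362), and its other detected probes gave -1.77 and -1.78 and did not pass among all probes. The ligand gene BMP7 fell by 1.20 ± 0.23 (0.0396) and the interferon-induced gene IFI6 fell by 1.41 ± 0.27 (0.0396), although another IFI6 probe gave -0.52 and did not pass. CHST7, a sulfotransferase, fell by 1.13 ± 0.21 (0.0322), and DTNA, a dystrobrevin, fell by 1.08 ± 0.21 (0.0397), with -0.89 and -0.74 from its other detected probes, which did not pass. In 10 of the 15 the knockdown arrays were not above background while the untreated arrays were, as in 0.982% of all genes tested. In 5 the mismatch arrays were also not above background (2.38% of all genes). The 15 were chosen as falls with low mismatch arrays, and a gene could be tested through its untreated arrays alone. That choice itself favours arrays at background, so these shares are no test.

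Among the rises, CYP2E1, a cytochrome P450 that oxidises ethanol, read 5.69 and 5.05 untreated, 8.0 and 8.48 with the knockdown, and 5.06 and 5.31 with the mismatch hairpin. Only the knockdown arrays were above background, and CYP2E1 was at least 4.64-fold higher (adjusted p = 0.000586). CSRP1, a LIM-domain protein of the cytoskeleton, read 8.64 and 9.45 untreated, 11.58 and 11.37 with the knockdown, and 5.41 and 5.67 with the mismatch hairpin. It rose by 2.43 ± 0.33 over untreated cells (0.00250), while the mismatch arrays lay at background, below the untreated arrays. Both genes were at background in H9.
LEFTY2 read 13.53 and 13.51 untreated, 14.94 and 15.21 with the knockdown, and 11.48 and 10.61 with the mismatch hairpin, and the groups did not overlap. It rose by 1.56 ± 0.24 over untreated cells (adjusted p = 0.00869), a 2.95-fold difference. In H9 it read 10.97 and 11.54 untreated and 15.38 and 15.36 with the knockdown, a rise of 4.11 ± 0.24 (1.74e-07), so the untreated CT2 arrays started higher and the knockdown arrays of both lines ended close together. LEFTY1 and LEFTY2 are near-identical copies, and probes may read both.
ADAMTSL2, a glycoprotein of microfibrils, rose by 2.07 ± 0.35 (0.0168) from 6.3 and 5.67 to 7.77 and 8.35, and the mismatch arrays read 6.01 and 5.20. RAC2, a small GTPase best known in blood cells, rose by 1.77 ± 0.36 (0.0499), with 9.14 and 7.94 on the mismatch arrays beside 7.79 and 8.21 untreated and 9.98 and 9.57 with the knockdown. PIWIL2, which binds piRNAs in germ cells, rose by 1.81 ± 0.36 (0.0499), and its other probe gave 2.03 (0.00712 among all probes). LRFN5, a synaptic adhesion molecule, rose by 1.47 ± 0.29 (0.0479), TSPYL5 by 1.28 ± 0.25 (0.0472) and FAM24B by 1.93 ± 0.33 (0.0168). FAM24B's other probe gave 1.12 and did not pass. HGC6.3 rose by 2.12 ± 0.40 (0.0397) and ATP5F1EP2, a pseudogene copy of an ATP synthase subunit whose probe may also read that gene, by 0.96 ± 0.15 (0.0105). For these last 2 genes the mismatch mean lay nearer to the knockdown than to the untreated mean.

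**Figure D3:**
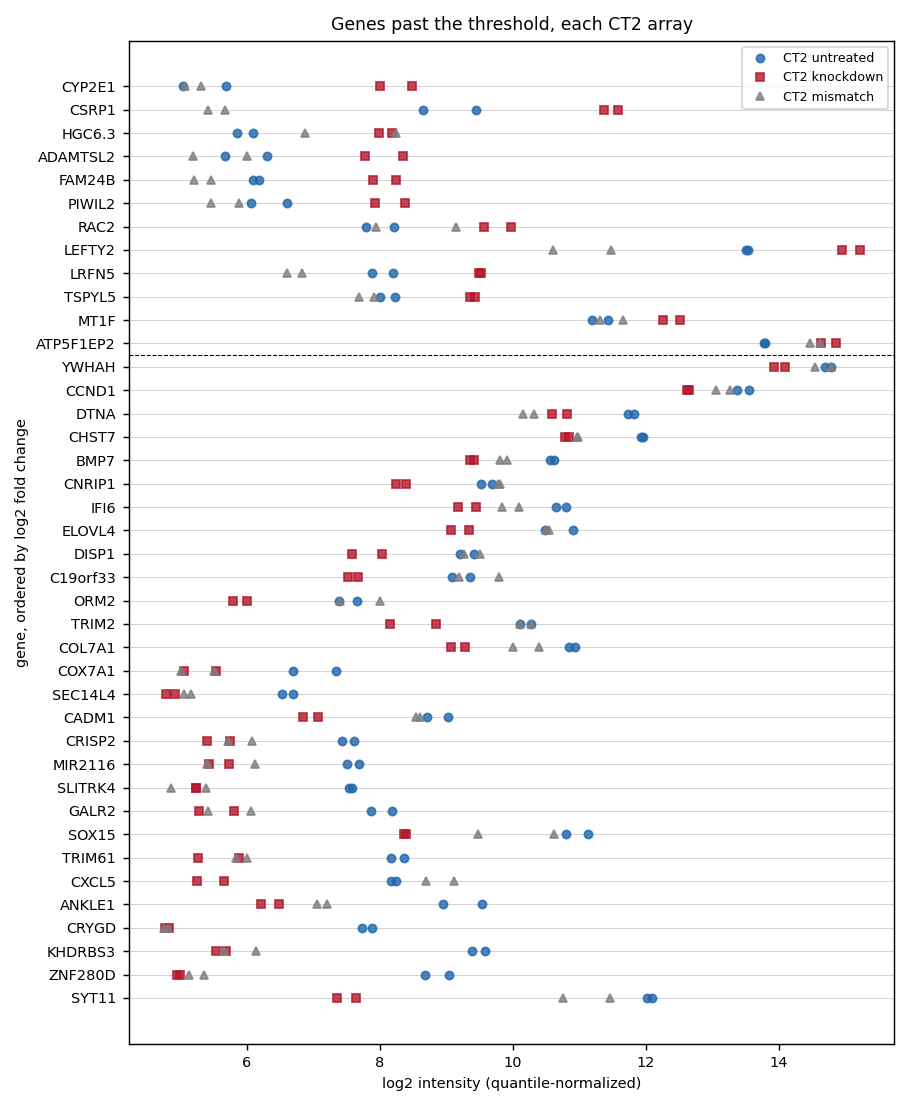
Normalized log2 intensity (x axis) of the 40 called genes on the untreated, knockdown and mismatch arrays of CT2, with 1 row per gene and 1 point per array. The mismatch points of KHDRBS3, ZNF280D and CRYGD sit with the knockdown points, and those of SYT11, CADM1 and CXCL5 sit with or near the untreated points.

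The H9 arrays are separate from the CT2 arrays and give the same contrast in another line. The shared fit gives each gene the same SE in both lines, so passing in H9 is not independent of a call in CT2. In H9 384 of the 12624 genes (3.04%) passed, 200 higher (1.58%) and 184 lower (1.46%), and 54.3% of all genes had a log2 change above 0 and 45.7% one below 0. Of the 13 falls with a CT2 mismatch mean nearer to untreated, all 13 were measured in H9, 12 had the same sign there, 9 passed in the same direction, and CXCL5 passed in the opposite one. Of the 15 falls with a mismatch mean nearer to the knockdown, COX7A1, CRISP2, CRYGD, MIR2116 and SEC14L4 lay at background in H9. Of the 10 that were measured, 9 had the same sign, and IFI6 and TRIM61 passed. The H9 changes of KHDRBS3 (-0.006 ± 0.24), SLITRK4 (-0.05 ± 0.29) and CHST7 (-0.09 ± 0.21) were smaller than their SE, so their sign carries no weight. The same holds for DISP1 among the 13 (-0.09 ± 0.27). Whether these groups of genes differ in their H9 response was not tested, since they were divided with the values in view. Of the 10 rises with a mismatch mean nearer to untreated, 3 lay at background in H9, and 5 of the other 7 had the same sign. LRFN5, with 0.10 ± 0.29 in H9, was smaller than its SE. LEFTY2, ADAMTSL2 (2.51 ± 0.35, adjusted p = 0.00106) and RAC2 (2.22 ± 0.36, 0.00288) passed. HGC6.3 also passed in H9, at 2.21 ± 0.40 (0.00693).

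The test of the difference itself, CT2 response minus H9 response, called 25 genes (0.198%), and 9 of them were among the 40. The difference was -4.51 ± 0.40 for CXCL5 (adjusted p = 4.16e-05), -3.97 ± 0.37 for ZNF280D (4.52e-05), -3.86 ± 0.34 for KHDRBS3 (4.16e-05) and -3.77 ± 0.42 for SYT11 (0.000315). It was -2.80 ± 0.42 for CRYGD, -2.55 ± 0.34 for LEFTY2, -2.28 ± 0.41 for SLITRK4, 2.64 ± 0.48 for CYP2E1 and 1.56 ± 0.27 for MT1F. These are fitted values. The CT2 knockdown probes of CXCL5, ZNF280D, KHDRBS3 and SLITRK4 were not above background, and with them set to the lowest detected signal the difference was at most -3.97, -2.94, -3.47 and -1.50, which has no SE. CRYGD and CYP2E1 were at background in the H9 groups, where a level has no order, so their difference has no bound. The rise of LEFTY2 was smaller in CT2. In H9 untreated SYT11 lay at 7.32 and 7.10, close above the lowest detected signal there (5.95 and 5.97 on the knockdown arrays), so a fall as large as in CT2 could not have been measured. For other genes the difference passed with no CT2 call. EGR1, an immediate early transcription factor, gave -0.56 in CT2 (0.390) and -2.56 in H9 (7.60e-06), a difference of 2.0 ± 0.31 (0.00685). BEX5 read 9.79 and 9.65 in untreated CT2 and 10.53 and 10.55 in its knockdown (0.82, adjusted p = 0.395), while in H9 it read 5.10 and 5.46 untreated and 11.07 and 10.65 with the knockdown. The fitted difference for BEX5 was -4.76 ± 0.45 (5.53e-05). These last genes were chosen after their values were seen.

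**Figure D4:**
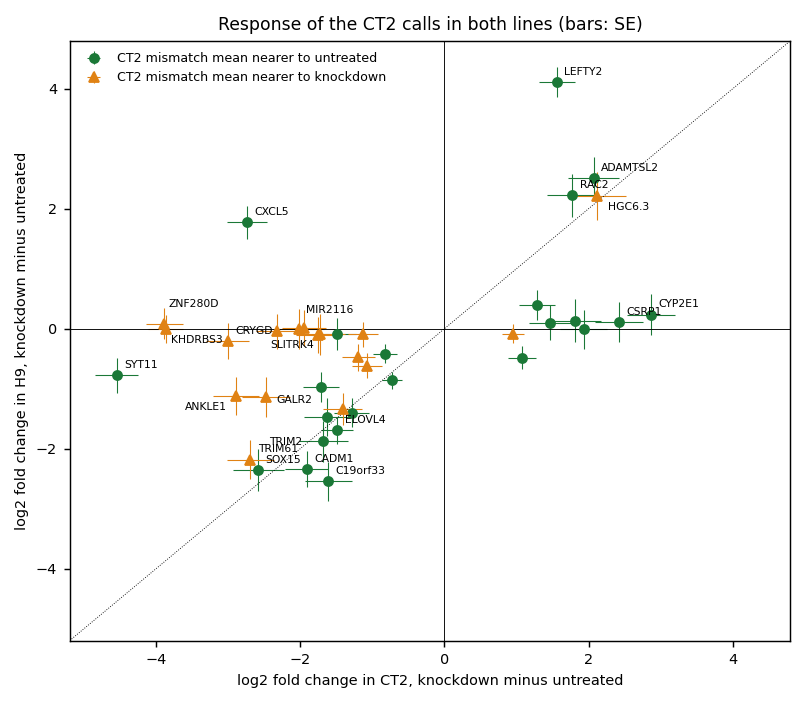
Log2 fold change of knockdown minus untreated in H9 (y axis) against that in CT2 (x axis) for the 40 called genes, with bars of 1 SE, the line of equal change dotted, and colour by the side on which the CT2 mismatch mean lies. Values are as fitted, also for genes at background, and CXCL5 lies at -2.74 in CT2 and 1.77 in H9, and SYT11 at -4.55 and -0.78.

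Among 34 lists of pathways, complexes and lineages, 10 held at least 1 gene past the threshold, and list medians ran from -0.34 to 0.27 beside 0.01 for all genes. An unadjusted p under 0.05, a count given below for many lists, was reached by 1196 of all 12624 genes (9.47%), and a share near that is not a result about a list. In the NODAL and activin list, LEFTY2 was the only 1 of 21 tested members that passed in the shared fit, the median was 0.27, and 4 passed on the 4 arrays alone, all higher. LEFTY1 read 12.94 and 13.40 untreated and 14.46 and 14.12 with the knockdown (1.12 ± 0.24, adjusted p = 0.0625, and 0.000296 on the 4 arrays). On the mismatch arrays it read 13.89 and 14.42, unlike LEFTY2. SMAD7, an inhibitory SMAD, gave 0.94 ± 0.24 (0.130, and 0.0233 on the 4 arrays), although another of its probes gave -0.07. CER1, a secreted antagonist of NODAL, gave 0.77 ± 0.25 (0.264, and 0.0392 on the 4 arrays), and NODAL itself gave 0.44 ± 0.22 (0.564, and 0.225 on the 4 arrays). The CT2 mismatch hairpin minus untreated gave -1.61 for CER1 (limma adjusted p = 0.00215) and -1.02 for NODAL (0.00963). The knockdown minus the mismatch hairpin gave 2.38 for CER1 (8.83e-05) and 1.46 for NODAL (0.00239). In H9 NODAL gave 1.83 ± 0.22 (0.000326), and the difference between the lines of -1.39 ± 0.31 did not pass (0.114).

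Metallothioneins are small proteins that bind zinc and copper. Of 30 tested members of the metallothionein and antioxidant list MT1F passed in the shared fit, and 5 passed on the 4 arrays alone, all higher, with a list median of 0.16. MT1F read 11.18 and 11.43 untreated, 12.51 and 12.26 with the knockdown, and 11.65 and 11.30 with the mismatch hairpin, and it rose by 1.07 ± 0.19 (adjusted p = 0.0273). The mismatch arrays of MT1F lay below its knockdown arrays. MT1G gave 0.85 ± 0.18 (0.0591, and 0.00289 on the 4 arrays) and MT1H gave 0.72 ± 0.19 (0.135, and 0.0191), and the mismatch arrays of both read as high as the knockdown arrays, at 13.40 and 13.22 for MT1G and 12.20 and 12.14 for MT1H. MT1E gave 0.69 ± 0.28 (0.430, and 0.0252) and MT1X gave 0.61 ± 0.27 (0.503, and 0.0168). Members of the MT1 family are near-identical copies, so a probe may read more than 1 of them. In H9 MT1F gave -0.48 ± 0.19 (0.202).
Metallothionein promoters are known for metal response elements. Of the 5 list members that passed on the 4 arrays, MT1H and MT1X had a promoter sequence at hand, and these promoters are shown. They are from RefSeq on GRCh38.p14, plus strand, chr16:56669564-56669863 and chr16:56682220-56682519, from 250 bases before to 50 after the start. Capitals mark the core motifs TGCGCNC and TGCACNC on either strand.
MT1H: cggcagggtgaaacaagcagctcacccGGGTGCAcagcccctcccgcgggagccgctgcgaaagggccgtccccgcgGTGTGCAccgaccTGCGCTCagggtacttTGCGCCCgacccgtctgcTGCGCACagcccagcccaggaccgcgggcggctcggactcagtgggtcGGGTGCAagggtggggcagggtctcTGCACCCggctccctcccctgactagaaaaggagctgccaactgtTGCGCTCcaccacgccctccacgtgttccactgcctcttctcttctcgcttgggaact
MT1X: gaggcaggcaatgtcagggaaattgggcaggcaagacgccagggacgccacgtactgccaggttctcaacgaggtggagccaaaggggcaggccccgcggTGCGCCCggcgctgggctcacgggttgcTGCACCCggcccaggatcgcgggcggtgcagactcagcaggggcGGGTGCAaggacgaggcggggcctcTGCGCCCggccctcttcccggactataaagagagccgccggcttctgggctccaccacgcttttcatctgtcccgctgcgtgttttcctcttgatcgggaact
The MT1H window holds 8 motif starts and the MT1X window 4. Of 27305 promoters of the same length 29.3% hold at least 1 and 0.593% hold at least 4. A match describes these letters and is not a measured binding site.

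Genes that mark pluripotent cells stayed short of the threshold. None of 29 tested members of the core list passed in the shared limma fit, with 1 at an unadjusted p under 0.05. On the 4 arrays alone 1 passed, VSNL1, a neuronal calcium sensor (-0.72 ± 0.25, adjusted p = 0.304, and 0.0421 on the 4 arrays). VSNL1 was also lower with the mismatch hairpin than in untreated CT2 cells (-0.85, adjusted p = 0.0389). POU5F1 gave 0.00 ± 0.14 (0.998), SOX2 0.14 ± 0.23 (0.941), NANOG -0.27 ± 0.18 (0.728) and LIN28A 0.09 ± 0.13 (0.930). Another detected POU5F1 probe gave -0.47 ± 0.30 (0.746 among all probes). The POU5F1 value had no stable sign, at -0.10 without untreated replicate 2 and -0.11 without knockdown replicate 2. The summed level of the core list was 279757 and 295629 untreated and 288706 and 291453 with the knockdown, on the linear intensity scale. In the naive list of 12 tested genes SOX15 fell. DPPA5, which binds RNA in early embryonic cells, read 6.54 and 7.12 untreated and dropped to background with the knockdown, at least 1.77-fold lower, which passed on the 4 arrays (0.00975) and not in the shared fit (0.0666).

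Markers of other cell types bear on the makeup of the cultures, and in bulk RNA fewer cells of a type and less RNA per cell cannot be told apart. Of 33 neural progenitor markers 19 were detected, and PAX6, SOX1 and LHX2 were not. None passed in the shared limma fit, and 3 had an unadjusted p under 0.05, 1 higher and 2 lower. HES5, with the smallest p of the list, gave -0.94 ± 0.31 (adjusted p = 0.266, and 0.132 on the 4 arrays). SOX3 passed on the 4 arrays alone (0.69 ± 0.26, adjusted p = 0.369, and 0.0414 on the 4 arrays). The summed level of the 19 detected markers was 42494 and 44365 untreated and 49557 and 48639 with the knockdown. Both knockdown arrays were higher, and the mismatch arrays were higher still, at 52214 and 56740. Of 23 tested neuron genes only SYT11 passed, and 3 were higher and 6 lower at an unadjusted p under 0.05. SCG2, a secretogranin, gave -1.89 ± 0.41 (0.0666, and 0.00227 on the 4 arrays), and NTS, the neurotensin precursor, gave 0.63 ± 0.19 (0.214, and 0.0288).
In the neural crest list 0 of 12 passed, 2 had an unadjusted p under 0.05, and CDH6, a cadherin, gave 1.19 ± 0.32 (0.153, and 0.0200 on the 4 arrays). In the primitive streak and mesoderm list 0 of 10 passed and 2 had an unadjusted p under 0.05. TBXT, MIXL1 and EOMES were not detected, and the growth factor gene FGF8 gave -1.14 ± 0.35 (0.218, and 0.0252). In the endoderm list 0 of 9 passed and 4 had an unadjusted p under 0.05, with SOX17 and GATA6 not detected. In the trophoblast and amnion list 17 of 21 markers were not detected, and 0 of the other 4 passed or had an unadjusted p under 0.05. In the fibroblast and mesenchyme list 0 of 12 passed and 3 had an unadjusted p under 0.05, 1 higher and 2 lower. POSTN, with the smallest p of this list, dropped to background with the knockdown and was at least 1.51-fold lower (0.216, and 0.123 on the 4 arrays). Its mismatch arrays were also not above background. PDGFRB, a receptor of mesenchymal cells, gave 1.17 ± 0.39 (0.267, and 0.0163 on the 4 arrays), and COL3A1 and LUM were not detected. The summed fibroblast level was 52482 and 61439 untreated and 69253 and 61001 with the knockdown, so the groups overlapped. The part of these marker levels in the calls was not tested.

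**Figure D5:**
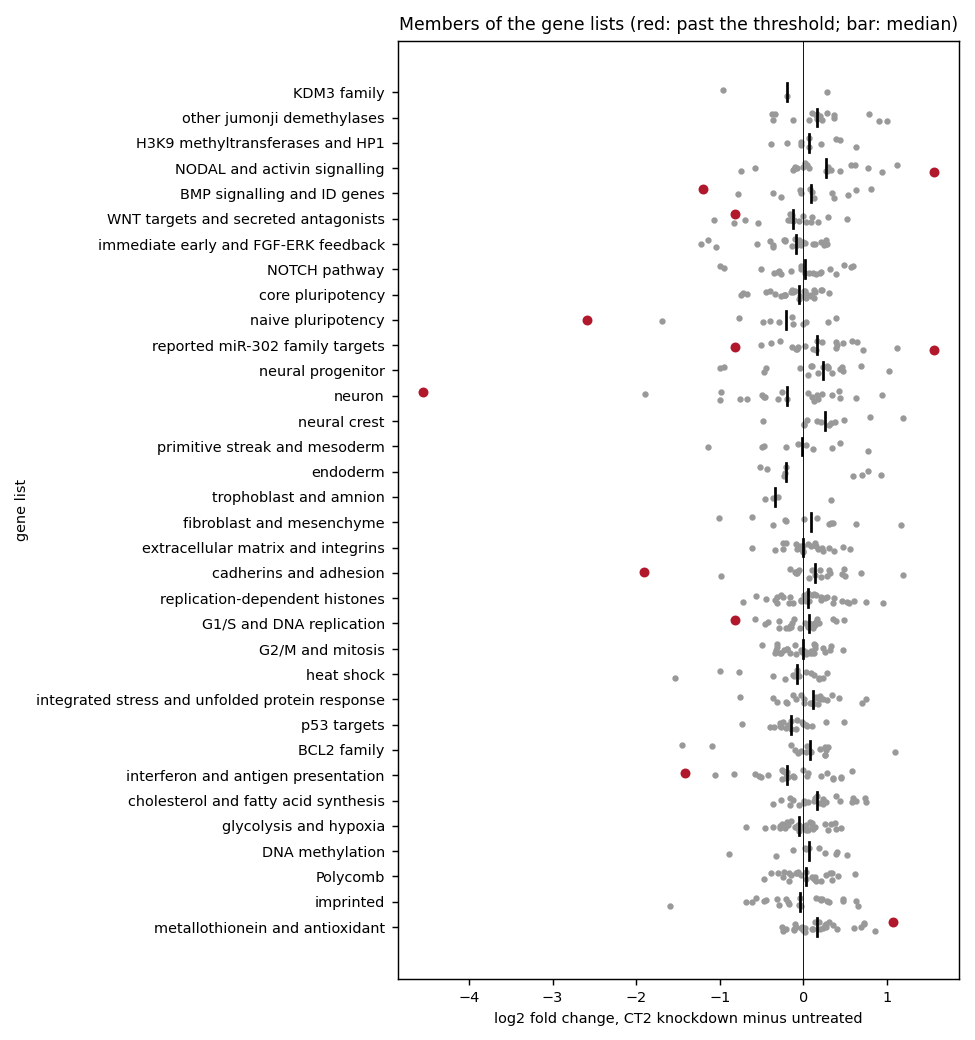
Log2 fold changes of CT2 knockdown minus untreated for the tested members of each list, with 1 point per gene, the list median as a bar and called genes in red. The NODAL and activin list has the highest median, 0.27, and the trophoblast and amnion list, with 4 members, the lowest, -0.34.

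In signalling lists other than NODAL, 1 of 14 BMP genes (BMP7) and 1 of 19 WNT genes (CCND1) fell, and medians were 0.09 and -0.12. Of 24 immediate early and FGF feedback genes 0 passed, and JUN, FGF8 and EGR1 had an unadjusted p under 0.05. On the 4 arrays 3 were past, all lower: JUN (-1.05 ± 0.25, 0.103, and 0.00482), FOSB (-1.22 ± 0.57, 0.531, and 0.0454) and FGF8. JUN, a subunit of the AP-1 transcription factor, read 11.35 and 11.35 untreated, 9.99 and 10.62 with the knockdown, and 10.41 and 9.87 with the mismatch hairpin, so the arrays with either hairpin were low. Of 21 NOTCH genes 0 passed in either fit and 2 had an unadjusted p under 0.05. Of 28 interferon and antigen presentation genes IFI6 fell, and the median was -0.19. On the 4 arrays HERC5, a ligase for ISG15, and IFI35 also passed, at -0.83 ± 0.19 (0.0886, and 0.00571) and -1.06 ± 0.33 (0.231, and 0.0457). In the adhesion list of 21 genes CADM1 fell, and CLDN3, a claudin, gave -0.99 ± 0.35 (0.304, and 0.0159). Of 25 matrix and integrin genes 0 passed in either fit and 1 had an unadjusted p under 0.05.

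Chromatin lists held no called gene. In the shared limma fit 0 of 17 other jumonji demethylases, 0 of 10 H3K9 methyltransferase and HP1 genes, 0 of 25 Polycomb genes and 0 of 11 DNA methylation genes passed, and 3, 0, 0 and 0 had an unadjusted p under 0.05. On the 4 arrays alone DNMT3A, a DNA methyltransferase, was the only member of these lists past the threshold (-0.89 ± 0.47, 0.608, and 0.0261 on the 4 arrays), while another of its probes gave 0.69. DNMT3A was also lower with the mismatch hairpin than in untreated CT2 cells (-1.69, adjusted p = 0.0303 in the shared limma fit), at 6.98 and 8.63 on the mismatch arrays. Of 25 imprinted genes 0 passed and 4 had an unadjusted p under 0.05. On the 4 arrays 3 were past, all lower. MEG8, a non-coding RNA of the DLK1 locus, read 10.28 and 10.08 untreated, 8.49 and 8.68 with the knockdown, and 8.93 and 9.23 with the mismatch hairpin (-1.60 ± 0.33, 0.0526, and 0.000158 on the 4 arrays). MEG3, of the same locus, gave -0.69 ± 0.30 (0.483, and 0.00345), and NNAT, neuronatin, -0.61 ± 0.18 (0.193, and 0.0266). The CT2 mismatch hairpin minus untreated gave -0.41 for MEG3 (adjusted p = 0.405 in the shared limma fit) and -0.67 for NNAT (0.0265). In H9 MEG3 lay between 5.83 and 6.54 on all 6 arrays, against 14.08 to 14.99 on the CT2 arrays.
Of 33 replication-dependent histone genes 0 passed and 3 had an unadjusted p under 0.05. H2AC6 gave 0.95 ± 0.24 (0.130, and 0.0180 on the 4 arrays), beside 2.48 ± 0.24 in H9 (3.99e-05). Of 30 G1/S genes CCND1 fell, and of 30 G2/M genes 0 passed in either fit and 2 had an unadjusted p under 0.05, with medians of 0.06 and -0.01. Stress and survival lists gave 0 of 17 heat shock genes, 0 of 25 integrated stress genes, 0 of 21 p53 targets and 0 of 17 BCL2 family genes, with 3, 4, 1 and 3 at an unadjusted p under 0.05. HSPB8, a small heat shock protein, gave -1.53 ± 0.32 (0.0541, and 0.00310) and HRK, which promotes apoptosis, -1.46 ± 0.29 (0.0503, and 0.00258). The CT2 mismatch hairpin minus untreated gave -1.60 for HSPB8 (adjusted p = 0.00673 in the shared limma fit) and -0.63 for HRK (0.173). Among metabolic lists 0 of 23 cholesterol and fatty acid genes and 0 of 32 glycolysis and hypoxia genes passed, with 4 and 1 at an unadjusted p under 0.05, and FASN, fatty acid synthase, gave 0.63 ± 0.21 (0.267, and 0.0102).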

How the data were processed

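The authors processed 12 Illumina bead arrays in GenomeStudio, per the submitters' processing notes, with no version given in the sources used here. Per the file headers, the deposited table holds each probe's mean bead intensity and its detection p-value. The authors' value table, also linear intensity, was normalized within each line by a method not given in the sources used here and served as an alternative.

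Intensities were background-corrected with limma 3.58.1 in R 4.3.3 (normal-exponential model, negative controls inferred from detection p-values, offset 16), quantile-normalized across all 12 and log2-transformed. The 2 lines stand in separate blocks of the deposited table, joined by probe identifier. A probe was kept with detection p under 0.05 on at least 2 of the 4 arrays compared. The kept probe with the highest mean over these arrays stood for its gene. Of 47314 probes 30108 carried 1 symbol, 8 several and 17198 none, and 5197 kept probes without 1 symbol were left out (2 of them higher and 2 lower past the threshold). Of the 30108, 30069 matched the GRCh38.p14 gene table by Entrez identifier, with 0 symbols updated. A limma model with 1 mean per group over all 12 arrays, with intensity trend and robust settings, gave two-sided tests adjusted by Benjamini-Hochberg over 12624 genes, threshold 0.05. It had 6 residual degrees of freedom and a median of 9.36 prior ones. The fit on the 4 arrays alone had 2 residual degrees of freedom, so its p-values rest largely on the prior. Errors are standard errors of the fit on all 12 arrays, also where an adjusted p of the 4 arrays stands beside them. A group not above background on either array gave a bound, the bright mean against the higher of each array's lowest detected signal and the probe's own, also for CXCL5, where another probe of the gene was detected.

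Genes were named by rule: the KDM3 family, the 12 largest rises and falls past the threshold with arrays apart, and from each list up to 4 members past it or else the one with the smallest p. Of the last kind, KDM7A, TRIM28, PHF1, BUB3, COL1A1, CHAC1, SPATA18, SLC2A1 and ISL1 passed neither in the shared fit nor on the 4 arrays. Their values are not given above. The remaining called genes, list members past the threshold on the 4 arrays, and genes said so were named after their values were seen. Members and lists were chosen with earlier results of these data known. On simulated data the model recovered 3, 21, 49 and 50 of 50 genes changed by 0.5, 1, 2 and 4 on the log2 scale, with 7 false calls. The simulation gave a gene the same spread in every group. In the data the replicate SD ran from 0.325 in untreated CT2 to 0.618 in CT2 mismatch, so these figures may not hold for them. Same-numbered CT2 untreated and knockdown arrays deviated together with r = 0.0956 across genes, and no label pairs them.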

Additional observations from a re-analysis of the deposited data

Results flagged for a closer look

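Besides EGR1 and BEX5, given above, the responses of the lines differed for 11 of the genes named, by the test of CT2 response minus H9 response. By the fitted values, of which those with a group at background are not exact, CT2 was lower than H9 for CXCL5 (-4.51), ZNF280D (-3.97), KHDRBS3 (-3.86), SYT11 (-3.77), CRYGD (-2.80), LEFTY2 (-2.55) and SLITRK4 (-2.28), and higher for CYP2E1 (2.64) and MT1F (1.56). FGF8 differed by -3.48 ± 0.50 (limma adjusted p = 0.00378). It read 8.02 and 8.36 in untreated CT2 and 6.92 and 7.17 in its knockdown, against 6.90 and 5.89 in untreated H9 and 8.66 and 8.81 in its knockdown. On the CT2 mismatch arrays the FGF8 probe was not above background. NTS differed by -1.68 ± 0.27 (0.0121), with 0.63 ± 0.19 in CT2 and 2.31 ± 0.19 in H9. For CXCL5, ZNF280D, KHDRBS3 and SLITRK4 the CT2 knockdown probes were not above background, which bounds the difference at -3.97, -2.94, -3.47 and -1.50 or lower, and for CRYGD and CYP2E1 the H9 groups lay at background, so no bound is given. The CT2 mismatch arrays were also low against the same untreated arrays, by -3.58 for KHDRBS3, and at least 7.21-fold for ZNF280D, 3.47-fold for CRYGD and 2.92-fold for SLITRK4, with their mismatch probes not above background. The part of the hairpin or of the culture in this was not tested.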

How the results depend on the processing

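The count of 40 genes stayed within 1.5 times with median scaling (48), no background correction (54), the authors' table (51), no filter (36), all kept probes (31) and no trend or robust settings (40). It became 8 with the stricter filter, 20 on the 6 CT2 arrays and also 20 when these were normalized alone, 374 on the 4 arrays compared, and 359 when the arrays CT2 mismatch replicate 2 and H9 untreated replicate 1 were both left out. Leaving out 1 array gave 9 to 145, with 143 and 145 without CT2 mismatch replicate 1 and 2, 10 and 12 without CT2 untreated replicate 1 and 2, 9 and 15 without CT2 knockdown replicate 1 and 2, and 23 without either H9 mismatch array. Without both CT2 mismatch arrays, an alternative chosen after seeing the data, there were 139. Apart from fewer arrays and genes entering a fit, the cause was not tested.

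With the replicate number as a block, 24 of the 40 passed and no other gene did, 7 higher and 17 lower, and the difference between the lines called 18 genes. The numbers carry no stated pairing.

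The difference between the lines, 25 genes, became 16 with the stricter filter, 146 with that same pair of arrays left out, 79 without both CT2 mismatch arrays, and 13 to 79 with 1 array left out. The extremes were 13 without CT2 untreated or knockdown replicate 1, and 76 and 79 without CT2 mismatch replicate 1 and 2.

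JMJD1C ran from -1.20 to -0.73 over all alternatives, without CT2 untreated replicate 1 and 2. At -0.97 it passed on the 4 arrays (adjusted p = 0.00468) and with that pair left out (0.00685), and in no other alternative. The sign turned for LARP7, which ran from -0.54 to 0.17 with 1 array left out, and for POU5F1, which ran from -0.11 to 0.11 and was -0.10 without CT2 untreated replicate 2. No other named gene turned its sign in any alternative. With 2 arrays a group, changes near 2-fold were often missed on simulated data, so a gene that did not pass is not shown to be equal.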
